A study of Sus scrofa with 8 samples.

Results

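Interferon-stimulated genes were followed in right ventricles of pigs (Sus scrofa), in 4 libraries of animals with a heterozygous knockout of PKP2 (PKP2_het) and 4 libraries of wild-type animals (WT). PKP2 encodes plakophilin 2, a desmosomal protein of heart muscle, and arrhythmogenic cardiomyopathy is the disease named in the series title. The genes are 39 named interferon-induced genes, taken by symbol from a table of 30550 genes, and all 39 symbols were found once each. Of these, 37 reached at least 1 FPKM (fragments scaled to gene length and to a factor per library) in at least 4 of the 8 libraries and were tested. The labels do not give age, sex, breed or litter, they do not describe the deleted allele, and they do not say whether each library came from its own animal. The p-values therefore measure the spread between these libraries, which may be technical. Their cell type field says cardiomyocytes, while the protocol describes whole tissue, and markers of several cell types were present in all libraries.

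Type I interferons bind a receptor made of IFNAR1 and IFNAR2, whose kinases JAK1 and TYK2 activate transcription factors such as STAT2. With IRF9 these bind interferon response elements and turn on a large set of antiviral genes. Cells keep a low tonic level of these genes without infection, and cytosolic RNA or DNA can raise them through sensors such as RIG-I and cGAS. Many cell types of the heart can express them, among them muscle cells, endothelium, fibroblasts and macrophages.

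No interferon-stimulated gene was called higher or lower in PKP2_het than in WT tissue, and the spread between libraries of a group was larger than most differences between the groups. By limma, with Benjamini-Hochberg adjustment over 10757 tested genes and a threshold of 0.05, 0 of 37 members were called higher and 0 lower, where 1.86% of all tested genes were called, 1.15% higher and 0.707% lower. The lowest adjusted p among the members was 0.306. At an unadjusted p under 0.05 there were 0 higher and 2 lower members, TRIM25 and SAMHD1, where 12.8% of all tested genes passed, 6.88% higher and 5.96% lower. Of 37 members 18 had a positive and 19 a negative log2 fold change, and their median was -0.0090 beside -0.022 for all tested genes. The PKP2_het and WT libraries overlapped for all 37 members, whereas 9.19% of all tested genes had groups that did not overlap, 4.86% higher and 4.33% lower. The 95% interval of the log2 fold change lay within 1 log2 unit of 0 for 35 members and within 0.5 for 14. The exceptions to the wider limit were MX2, with an interval of -1.09 to 0.15, and IFI6, with -0.40 to 1.21. Fold changes here are on the scale of log2(FPKM + 1), which understates changes of genes at a low level. Directions are relative to the deposited scaling: with libraries rescaled to equal FPKM sums the median of all genes was -0.23, and 15 of the 18 positive members turned negative.

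**Figure D1:**
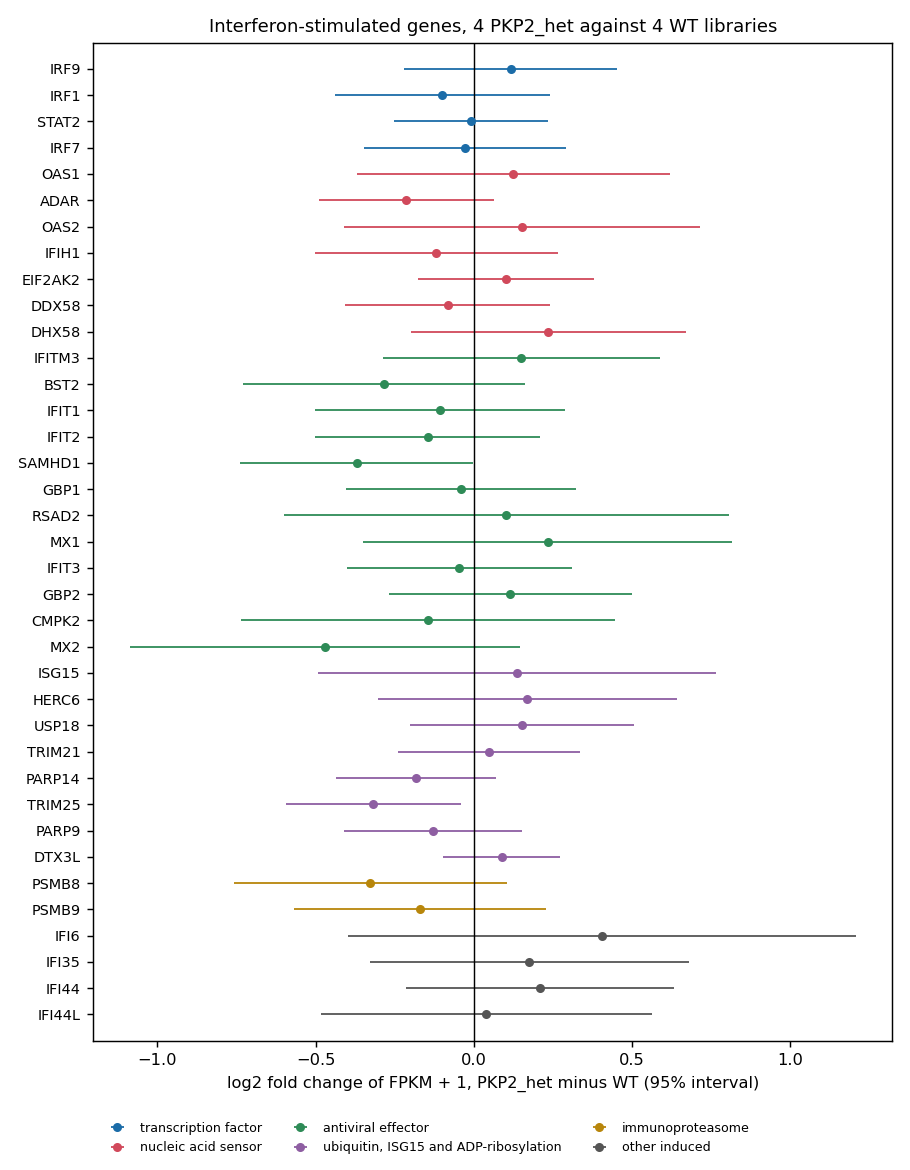
Log2 fold change of FPKM + 1, PKP2_het minus WT, with its 95% interval for 37 interferon-stimulated genes, one row per gene and coloured by role (4 libraries per group). Estimates lie between -0.47 (MX2) and 0.41 (IFI6), and apart from TRIM25 and SAMHD1 every interval includes 0.

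The knocked-out gene was lower, as a check of the labels. PKP2 was at 45.4, 40.7, 24.6 and 45.9 FPKM in PKP2_het replicates 1 to 4, against 52.9, 62.2, 61.1 and 72.8 FPKM in WT replicates 1 to 4, and the groups did not overlap. An exact permutation test gave a two-sided p of 0.0286, which is the floor with 70 relabellings, and limma an adjusted p of 0.164 with a log2 fold change of -0.69. Without PKP2_het replicate 3 that change was -0.48. The table corresponds to 23637697 to 31313628 fragments per library. PKP2_het replicate 3 stood apart, with 52.1% of its fragments from the mitochondrial genome against 21.1% to 33.4% in the other PKP2_het libraries and 22.0% to 37.6% in WT libraries, so values that move most without it are also given that way. Without that library 0 members were called, and BST2, PSMB8, PSMB9 and TRIM25 had an unadjusted p under 0.05, all lower, where 16.6% of all tested genes did.

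Levels of the members per length ranged widely. IFITM3 and IFI6 stood highest, with 9 members above a mean of 10 FPKM over the 8 libraries, 11 between 5 and 10, and 17 below 5. The tested members had between 39 and 3191 fragments in a library, and 35 reached 1 FPKM in every library. OASL, a member of the oligoadenylate synthetase family, and XAF1, a partner of the apoptosis inhibitor XIAP, were listed at 0 in all 8 libraries. In these libraries 3 fragments would correspond to 0.0703 to 0.104 FPKM of OASL and 0.0712 to 0.106 FPKM of XAF1. The annotated span of XAF1 lies wholly within that of FBXO39 on the same strand. The sources used here do not say how fragments in such overlaps were counted.

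The transcription factors of the response had close means in both groups. STAT2, a signal-dependent factor of the type I response, averaged 4.63 ± 0.651 FPKM in PKP2_het and 4.64 ± 0.322 FPKM in WT (here and below mean ± SD of 4 libraries), a ratio of means of 0.997. IRF9, the DNA-binding partner of STAT2, averaged 14.8 ± 2.97 FPKM in PKP2_het and 13.5 ± 1.59 FPKM in WT. For IRF7, which amplifies interferon gene transcription, the means were 2.54 ± 0.578 FPKM in PKP2_het and 2.60 ± 0.473 FPKM in WT. IRF1, a factor induced most strongly by interferon gamma, averaged 7.61 ± 0.893 FPKM in PKP2_het and 8.33 ± 1.95 FPKM in WT. The 95% intervals of these 4 genes ran from -0.44 at the lowest to 0.45 at the highest, so a doubling on the log2(FPKM + 1) scale lay outside all of them. STAT2 is on chromosome 5 of Sscrofa11.1, from 21733030 to 21748960, and IRF9 on chromosome 7, from 75133800 to 75139641.

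Nucleic acid sensors likewise overlapped, with 4 of 7 tested members at a positive log2 fold change and a median of 0.10 (DHX58 alone stayed positive with equal FPKM sums). DHX58, which encodes the RIG-I-like regulator LGP2, was at 1.24, 2.47, 2.17 and 1.06 FPKM in PKP2_het replicates 1 to 4. In WT replicates 1 to 4 it was at 0.844, 1.25, 1.87 and 1.22 FPKM. PKP2_het replicates 2 and 3 were above every WT library, and the other PKP2_het libraries lay among them (log2 fold change 0.24 ± 0.19 SE, limma adjusted p = 0.654). The log2 fold change of DHX58 was 0.11 when PKP2_het replicate 2 was left out, 0.15 when replicate 3 and 0.36 when replicate 4 was, and 0.14 without WT replicate 1. DDX58, which encodes RIG-I, averaged 1.53 ± 0.510 FPKM in PKP2_het and 1.65 ± 0.291 FPKM in WT, and IFIH1, which encodes MDA5, 2.22 ± 0.643 FPKM in PKP2_het and 2.48 ± 0.584 FPKM in WT. Both proteins recognise viral or misplaced RNA in the cytosol. The kinase gene EIF2AK2 (PKR), which halts translation on double-stranded RNA, averaged 1.88 ± 0.459 FPKM in PKP2_het and 1.67 ± 0.202 FPKM in WT. OAS1 and OAS2, synthetases of the messenger that activates RNase L, averaged 17.5 ± 5.65 and 5.70 ± 2.44 FPKM in PKP2_het, against 15.5 ± 2.97 and 4.86 ± 1.42 FPKM in WT. ADAR, the editing enzyme that keeps cellular double-stranded RNA from being sensed, averaged 4.86 ± 0.804 FPKM in PKP2_het and 5.76 ± 0.600 FPKM in WT (log2 fold change -0.21, limma adjusted p = 0.524).

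Among antiviral effectors, the estimate of MX2 rested on single libraries. MX2, a dynamin-like GTPase, was at 1.36, 3.95, 0.796 and 1.97 FPKM in PKP2_het replicates 1 to 4, against 3.64, 3.05, 2.997 and 2.07 FPKM in WT replicates 1 to 4. Of the PKP2_het libraries 3 lay below every WT library and replicate 2 above all of them. PKP2_het replicate 3 rested on 39 fragments, and the log2 fold change was -0.47 ± 0.28 (SE; limma adjusted p = 0.529). The log2 fold change of MX2 was -0.26 without PKP2_het replicate 3, -0.74 without PKP2_het replicate 2 and -0.057 with library quality weights. Its neighbour MX1, the related GTPase that blocks influenza viruses, was at 3.81, 8.10, 3.85 and 2.83 FPKM in PKP2_het replicates 1 to 4 and at 3.24, 3.39, 5.23 and 2.67 FPKM in WT replicates 1 to 4. Here the PKP2_het mean was the higher one, at a ratio of means of 1.28, through replicate 2 (log2 fold change 0.23 ± 0.26 SE, limma adjusted p = 0.734), and without that library the log2 fold change of MX1 was -0.023, while it was 0.39 without either PKP2_het replicate 4 or WT replicate 3.

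SAMHD1, which degrades the nucleotides needed for DNA synthesis of retroviruses, was at 4.80, 5.18, 3.21 and 5.17 FPKM in PKP2_het replicates 1 to 4 and at 4.81, 6.96, 5.67 and 7.44 FPKM in WT replicates 1 to 4. The groups met only at WT replicate 1, which lay below PKP2_het replicates 2 and 4. Its log2 fold change was -0.37 ± 0.16 (SE), with an unadjusted p of 0.0486 and a limma adjusted p of 0.384. Without PKP2_het replicate 3, its lowest library, the log2 fold change of SAMHD1 was -0.24 with an unadjusted limma p of 0.104, and the p was also above 0.05 without PKP2_het replicate 1 or WT replicate 2, 3 or 4. BST2 (tetherin), which holds budding viruses at the cell surface, was at 16.5, 18.8, 25.6 and 16.0 FPKM in PKP2_het replicates 1 to 4 and at 24.7, 21.7, 31.3 and 17.4 FPKM in WT replicates 1 to 4. PKP2_het replicates 1 and 4 were below every WT library, and the log2 fold change was -0.28 ± 0.20 (SE; limma adjusted p = 0.598). That of BST2 was -0.15 without WT replicate 3 and -0.42 without PKP2_het replicate 3. The most abundant member by FPKM, IFITM3, which blocks viral fusion in endosomes, was at 89.5, 109.6, 139 and 78.9 FPKM in PKP2_het replicates 1 to 4 and at 87.9, 86.2, 117 and 79.2 FPKM in WT replicates 1 to 4. The groups overlapped over most of that range. IFITM3 has near-identical family copies in the pig genome, so its fragments may be shared with them. SAMHD1 lies on chromosome 17, from 40117348 to 40171935, BST2 on chromosome 2, from 60305306 to 60308295, and IFITM3 on chromosome 2, from 128658 to 129736.

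The remaining effectors showed no direction in common. RSAD2 (viperin), an iron-sulphur enzyme that makes a chain-terminating nucleotide, averaged 5.33 ± 2.80 FPKM in PKP2_het and 4.86 ± 2.42 FPKM in WT, and CMPK2, a nucleotide kinase encoded beside it, 2.92 ± 0.863 FPKM in PKP2_het and 3.48 ± 1.66 FPKM in WT. IFIT1, IFIT2 and IFIT3, which bind viral RNA and hinder its translation, had ratios of means of 0.944, 0.890 and 0.981. GBP1 and GBP2, guanylate-binding proteins that attack pathogen-containing vacuoles, had ratios of means of 0.953 and 1.13. All 12 effectors passed the filter, 4 with a positive and 8 with a negative estimate, at a median log2 fold change of -0.077.

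**Figure D2:**
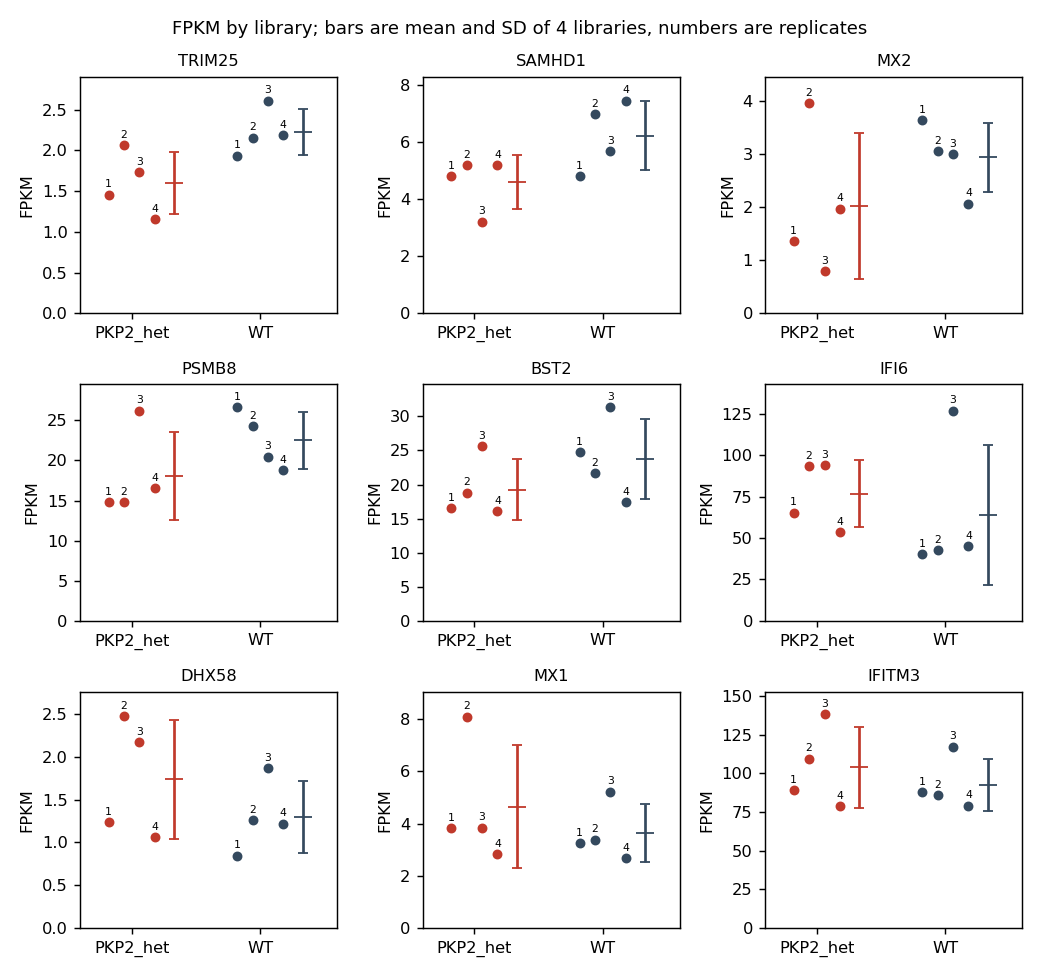
FPKM of 9 interferon-stimulated genes in each library, PKP2_het left and WT right, with replicate numbers beside the points and the mean and SD of 4 libraries as bars. The groups overlap in each panel, and single libraries set the spread, such as PKP2_het replicate 2 for MX1 (8.10 FPKM) and WT replicate 3 for IFI6 (127 FPKM).

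Among genes of ubiquitin, ISG15 and ADP-ribose conjugation, TRIM25 had the smallest p of all members. TRIM25, a ubiquitin ligase that helps RIG-I signal, was at 1.46, 2.06, 1.73 and 1.16 FPKM in PKP2_het replicates 1 to 4 and at 1.94, 2.16, 2.61 and 2.19 FPKM in WT replicates 1 to 4. The groups crossed only where PKP2_het replicate 2 exceeded WT replicate 1. As a share of the WT mean the PKP2_het mean came to 72.0%, with a log2 fold change of -0.32 ± 0.12 (SE), a 95% interval of -0.59 to -0.041, an unadjusted p of 0.0285 and, by limma, an adjusted p of 0.306. The unadjusted p of TRIM25 was above 0.05 when PKP2_het replicate 1 or 4 or WT replicate 3 or 4 was left out, with log2 fold changes of -0.40 to -0.23 over all 8 omissions. TRIM25 lies on chromosome 12, from 33184039 to 33212440. ISG15 itself, the ubiquitin-like modifier, was at 14.7, 21.2, 17.3 and 9.42 FPKM in PKP2_het replicates 1 to 4 and at 9.86, 15.3, 21.6 and 10.4 FPKM in WT replicates 1 to 4, so that both groups covered nearly the same range. HERC6, the ISG15 ligase known from mouse, and USP18, which removes ISG15 and damps the receptor, had ratios of means of 1.18 and 1.15. TRIM21, a cytosolic antibody receptor with ligase activity, was at 1.05. PARP14, an ADP-ribosyltransferase, PARP9 and its ligase partner DTX3L had ratios of means of 0.835, 0.863 and 1.12. PARP9 and DTX3L overlap by 395 bases on opposite strands, and strand-aware counting is not stated, so reads in that stretch cannot be told apart.

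PSMB8 and PSMB9, catalytic subunits of the immunoproteasome that cuts peptides for class I presentation, both had lower PKP2_het means. PSMB8 was at 14.8, 14.8, 26.2 and 16.6 FPKM in PKP2_het replicates 1 to 4 and at 26.6, 24.3, 20.5 and 18.8 FPKM in WT replicates 1 to 4. PKP2_het replicate 3 lay near the highest WT library while the other PKP2_het libraries were below every WT library. With all libraries the log2 fold change was -0.33 ± 0.19 (SE; limma adjusted p = 0.532). Without PKP2_het replicate 3 the log2 fold change of PSMB8 was -0.51 ± 0.13 (SE) and its limma adjusted p 0.0741, and with library quality weights it was the 1 member called (log2 fold change -0.50, limma adjusted p = 0.0406), where 2.71% of all tested genes were called lower. PSMB9 averaged 10.3 ± 2.89 FPKM in PKP2_het and 11.5 ± 1.55 FPKM in WT, with a log2 fold change of -0.17, and -0.32 without PKP2_het replicate 3 (limma adjusted p = 0.253). The genes are 10466 bases apart on chromosome 7, PSMB8 from 25058456 to 25061666 and PSMB9 from 25072133 to 25077508.

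Of the other induced genes, IFI6, a small hydrophobic membrane protein, had the largest positive estimate and the largest spread of any member. It was at 65.4, 93.5, 94.2 and 53.8 FPKM in PKP2_het replicates 1 to 4 and at 40.3, 42.5, 127 and 45.2 FPKM in WT replicates 1 to 4. All PKP2_het libraries lay above WT replicates 1, 2 and 4 and below WT replicate 3. The log2 fold change was 0.41 ± 0.36 (SE; limma adjusted p = 0.675). Without WT replicate 3 the groups did not overlap and the log2 fold change of IFI6 was 0.79, with a limma adjusted p of 0.147, and without WT replicate 1 it was 0.25. IFI44, IFI44L and IFI35 had ratios of means of 1.17, 1.07 and 1.17, and all 4 tested genes of this set had a positive log2 fold change, IFI6 alone also with equal FPKM sums, the lowest limma adjusted p among them being 0.675. IFI6 lies on chromosome 6, from 84852782 to 84858072.

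The members varied more between libraries of one group than the typical gene did. The median within-group SD of log2(FPKM + 1) was 0.28 for the 37 members and 0.20 for all tested genes, while the median absolute log2 fold change was 0.14 for both. The difference between group means exceeded the within-group SD for 6 members (16.2%) and for 32.9% of all tested genes. The widest spreads were those of IFI6 at 0.62, RSAD2 at 0.54, ISG15 at 0.48 and MX2 at 0.47.

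The same libraries were high for many members. Within PKP2_het, replicate 2 held the highest value for 19 members and replicate 3 for the other 18, and replicates 1 and 4 for 0, whereas these 2 libraries were the highest for 48.3% of all tested genes. Within WT, replicate 3 was highest for 19 members, replicate 1 for 15, replicate 2 for 2 and replicate 4 for 1. As shares, WT replicate 3 was highest for 51.4% of members and 25.7% of all tested genes, and WT replicate 1 for 40.5% of members and 30.0% of all tested genes. The median deviation of the members from their group mean, in log2 units, was -0.20, 0.23, 0.19 and -0.17 in PKP2_het replicates 1 to 4 and 0.042, -0.026, 0.14 and -0.18 in WT replicates 1 to 4. Over all tested genes it lay between -0.052 and 0.044. Libraries low for the members were thus present in both groups, as were libraries high for them. Without PKP2_het replicate 2, SAMHD1, ADAR, MX2, PARP14 and TRIM25 had an unadjusted p under 0.05, all lower and none called (lowest limma adjusted p = 0.154), where 12.5% of all tested genes did. IFI6 and IFI44 passed that threshold without WT replicate 3, both higher, where 11.8% of all tested genes did. HERC6 passed it without PKP2_het replicate 1, also higher, where 11.6% did. In the remaining omissions, apart from PKP2_het replicate 3, only SAMHD1, TRIM25, both or neither passed.

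**Figure D3:**
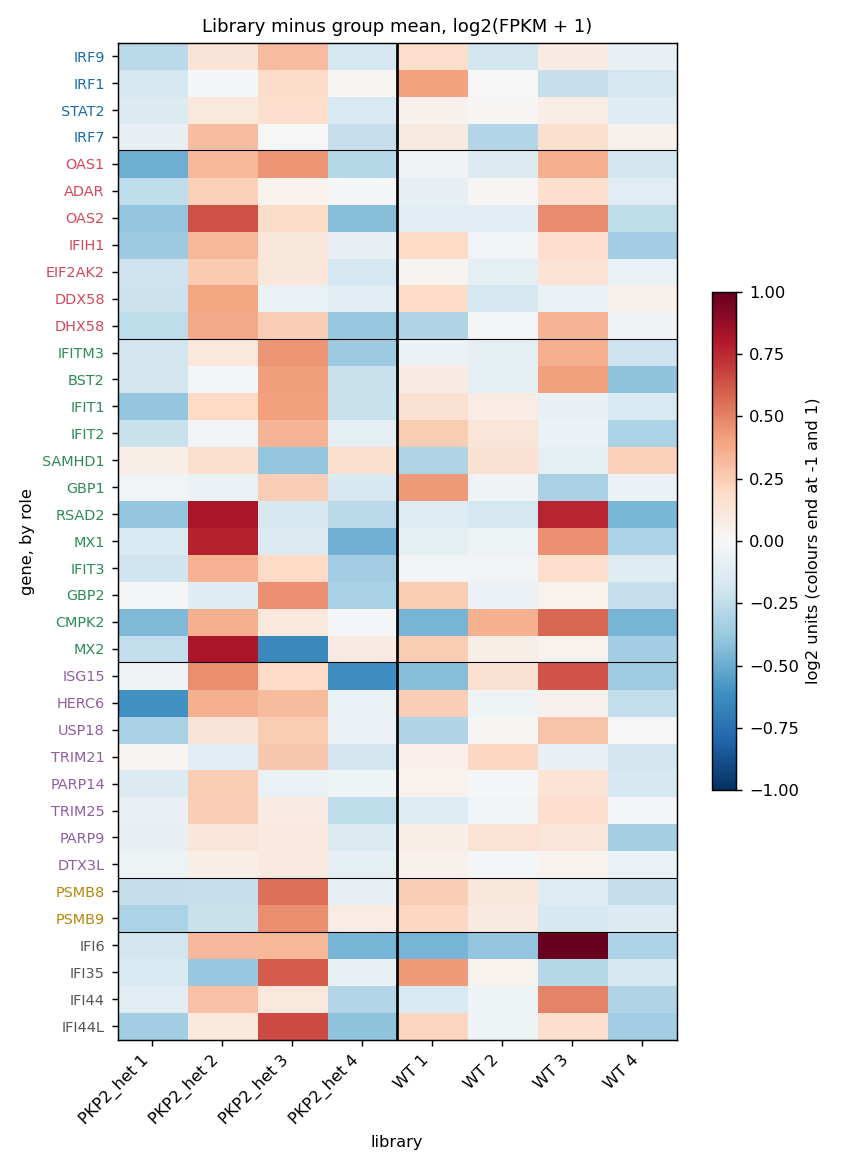
Deviation of each library from its group mean, in log2(FPKM + 1), for 37 interferon-stimulated genes (rows, by role) in 4 PKP2_het and 4 WT libraries (columns). PKP2_het replicates 2 and 3 and WT replicate 3 are mostly red, with median deviations of 0.23, 0.19 and 0.14, and PKP2_het replicates 1 and 4 and WT replicate 4 are mostly blue.

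The members differed in which pair of libraries was highest, a comparison described after the values were seen. PKP2_het replicate 2 and WT replicate 3 were jointly highest for 13 members (35.1%), against 5.37% of all tested genes. These were RSAD2, MX1, IFIT3, CMPK2, ADAR, OAS2, EIF2AK2, DHX58, IFI44, IRF7, ISG15, PARP14 and TRIM25. RSAD2 shows the pattern, with 3.55, 9.49, 4.34 and 3.93 FPKM in PKP2_het replicates 1 to 4 and 4.07, 3.91, 8.42 and 3.03 FPKM in WT replicates 1 to 4. OAS2 was at 3.87, 8.93, 6.25 and 3.75 FPKM in PKP2_het replicates 1 to 4 and at 4.35, 4.30, 6.95 and 3.83 FPKM in WT replicates 1 to 4. In both genes 1 library of each group stood at or above 6.95 FPKM and the WT libraries other than replicate 3 were at most at 4.35 FPKM.

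PKP2_het replicate 3 and WT replicate 1 were jointly highest for another 11 members (29.7%), a combination that 16.8% of all tested genes had. These were IFIT1, IFIT2, GBP1, GBP2, PSMB8, PSMB9, IFI35, IFI44L, IRF9, IRF1 and DTX3L. IFI35, a partner of the interferon-induced protein NMI, was at 8.29, 6.93, 14.7 and 8.82 FPKM in PKP2_het replicates 1 to 4 and at 11.3, 8.39, 6.49 and 7.10 FPKM in WT replicates 1 to 4. For this gene WT replicate 3 was the lowest WT library and PKP2_het replicate 2 the lowest PKP2_het library, while both were the highest for RSAD2. These 11 members had a median gene length of 2197 bases and a median level of 7.97 FPKM, against 2885 bases and 3.997 FPKM for the 13 members above. The remaining members had other pairs. PKP2_het replicate 3 and WT replicate 3 were highest for 6 of them (16.2% of members, 5.48% of all tested genes). For 4 others the pair was PKP2_het replicate 2 and WT replicate 1 (10.8% of members, 2.92% of all tested genes).

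Some other measures moved with these libraries. PKP2_het replicate 3 and WT replicate 1 had the highest mitochondrial share of their groups, at 52.1% and 37.6%. PKP2_het replicate 2 and WT replicate 3 had the lowest, at 21.1% and 22.0%. The summed level of 12 macrophage markers was 30.4, 64.2, 39.2 and 23.5 FPKM in PKP2_het replicates 1 to 4 and 48.6, 42.9, 59.2 and 53.8 FPKM in WT replicates 1 to 4, highest in PKP2_het replicate 2 and in WT replicate 3. Endothelial markers summed to 239, 287, 473 and 363 FPKM in PKP2_het replicates 1 to 4 and to 543, 431, 285 and 384 FPKM in WT replicates 1 to 4, highest in PKP2_het replicate 3 and in WT replicate 1. Fibroblast markers were highest in PKP2_het replicate 2 (467 FPKM) and in WT replicate 3 (309.5 FPKM, close to 307.9 FPKM in WT replicate 4). T and NK cell markers followed neither pair, with their highest sums in PKP2_het replicate 3 (10.8 FPKM) and WT replicate 2 (17.1 FPKM). B and plasma cell markers were highest in the same libraries (3.93 and 4.26 FPKM). Cardiomyocyte markers (44738 and 36716 FPKM) and plasmacytoid dendritic cell markers (48.0 and 36.2 FPKM) had their highest sums in PKP2_het replicate 3 and WT replicate 1. Single cardiomyocyte markers went both ways. TNNT2, TNNC1, MYL2 and MYL3 were highest in both of these libraries, while MYH7, ACTN2 and RYR2 were lowest in both. Without its most abundant marker, IL3RA, the plasmacytoid dendritic cell sum of PKP2_het was highest in replicate 4 (5.66 FPKM, against 4.59 FPKM in replicate 3). The part of mitochondrial share and of these cell types in the members' values was not tested. In whole tissue, fewer cells of a type and less RNA per cell cannot be told apart.

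**Figure D4:**
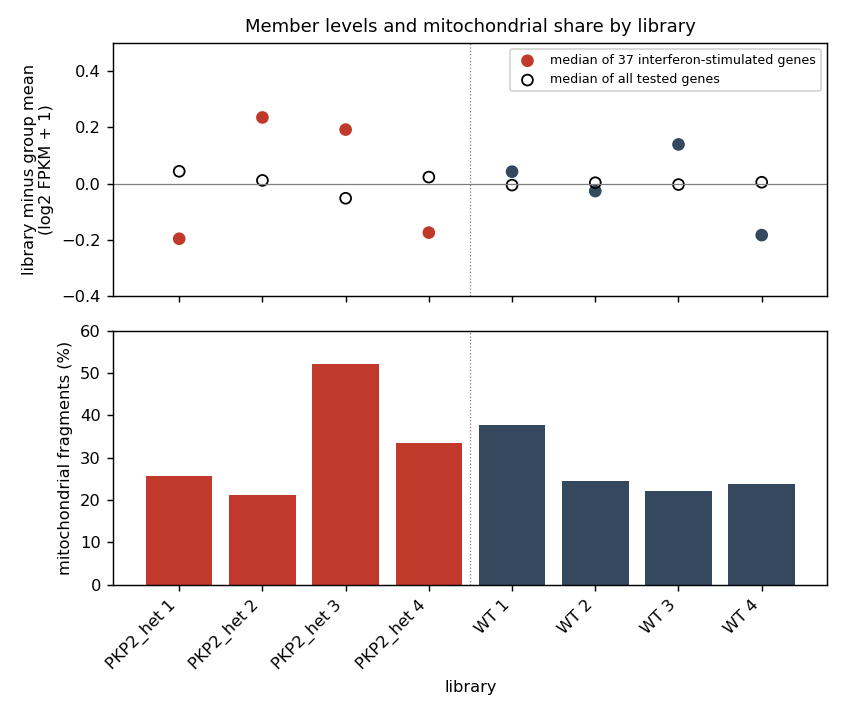
Top, median deviation from the group mean in log2(FPKM + 1) for 37 interferon-stimulated genes (filled points) and all tested genes (open points), by library, with PKP2_het left and WT right. Bottom, percent of fragments from the mitochondrial genome, which is highest in PKP2_het replicate 3 (52.1%) and, among WT libraries, in replicate 1 (37.6%).

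Many members sit beside each other on the chromosome. Close neighbours were MX2 and MX1 on chromosome 13, OAS2 and OAS1 on chromosome 14 and IFI44 and IFI44L on chromosome 6. So were GBP2 and GBP1 on chromosome 4, RSAD2 and CMPK2 on chromosome 3, PSMB8 and PSMB9 on chromosome 7, the trio IFIT2, IFIT3 and IFIT1 on chromosome 14, and PARP14, DTX3L and PARP9 on chromosome 13. RSAD2 and CMPK2 face away from each other 5585 bases apart, from 128880853 to 128917873, and both had their highest libraries in PKP2_het replicate 2 and WT replicate 3. MX2 and MX1, 21436 bases apart on the same strand, shared PKP2_het replicate 2 as the highest library but differed in replicate 3, which was the lowest PKP2_het library for MX2 at 0.796 FPKM and the second highest for MX1 at 3.85 FPKM. IFIT1, IFIT2 and IFIT3 lie within the span of LIPA on the opposite strand, which averaged 5.03 FPKM, and IRF1 within that of SLC22A5. DDX58 shares 38319 bases with ACO1 on the opposite strand, and ACO1 averaged 17.7 FPKM against 1.59 FPKM for DDX58. Reads where exons overlap cannot be told apart without strand-aware counting.

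Upstream of these genes, transcripts of the 5 interferon genes examined were near or at 0. The other 2 listed ligands, IFNL1 and IFNL3, had no match, and interferon genes outside the list were not examined. IFNB1, IFNK and IFNE had 0 FPKM in every library. IFNG reached at most 3 fragments in a library, and IFNA1 at most 18, in WT replicate 1 at 1.28 FPKM. None of these 5 ligand genes passed the filter. Of 16 receptor and signalling genes 14 were tested and 0 were called in either direction, with 4 positive and 10 negative log2 fold changes. The smallest p was that of IL10RB, a chain shared by the interferon lambda and interleukin 10 receptors, at 4.65, 4.52, 5.69 and 5.27 FPKM in PKP2_het replicates 1 to 4 and 3.49, 3.37, 3.55 and 4.66 FPKM in WT replicates 1 to 4. WT replicate 4 reached into the PKP2_het range (log2 fold change 0.34 ± 0.12 SE, limma adjusted p = 0.234). STAT3, a transducer of interleukin 6 signals, had a log2 fold change of -0.33 ± 0.16 (SE) and IFNAR1, a chain of the type I receptor, -0.29 ± 0.16, with limma adjusted p-values of 0.421 and 0.516. Without PKP2_het replicate 3 the log2 fold change of STAT3 was -0.19.

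Of 18 nucleic acid sensing genes beyond the members 10 were tested and 0 called, with 2 lower at an unadjusted p under 0.05. ZBP1, a sensor of Z-form nucleic acid, was at 2.27, 3.64, 3.13 and 2.40 FPKM in PKP2_het replicates 1 to 4 and at 4.20, 3.77, 3.54 and 5.01 FPKM in WT replicates 1 to 4, with overlap only between PKP2_het replicate 2 and WT replicate 3 (log2 fold change -0.42 ± 0.14 SE, limma adjusted p = 0.232). IRF8, a factor of myeloid cells, averaged 0.788 ± 0.172 FPKM in PKP2_het and 1.21 ± 0.254 FPKM in WT (log2 fold change -0.30, limma adjusted p = 0.272). TMEM173, which encodes the adaptor STING, was at 9.17, 8.89, 17.4 and 8.44 FPKM in PKP2_het replicates 1 to 4 and at 8.30, 7.85, 7.51 and 6.73 FPKM in WT replicates 1 to 4. The groups of TMEM173 did not overlap (log2 fold change 0.42 ± 0.20 SE, limma adjusted p = 0.430), and PKP2_het replicate 3 stood far above the rest. Without that library the log2 fold change of TMEM173 was 0.20 (limma adjusted p = 0.310). MB21D1, which encodes the DNA sensor cGAS, stayed under 1 FPKM in every library and was not tested.

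Among 40 further interferon-induced genes 31 were tested and 0 called, with 12 positive and 19 negative log2 fold changes, whose median was -0.072. TAP1, the peptide transporter of class I loading, was at 7.56, 8.70, 10.9 and 9.27 FPKM in PKP2_het replicates 1 to 4, all below WT replicates 1 to 4 at 13.7, 12.4, 12.0 and 11.0 FPKM. Its log2 fold change was -0.40 ± 0.12 (SE) with a limma adjusted p of 0.190, and TAP1 was called lower without PKP2_het replicate 3 (adjusted p = 0.0436) and with library quality weights (adjusted p = 0.0182). Other genes tied to class I loading or the proteasome went both ways. TAP2 (-0.39) and TAPBP (-0.050) had negative log2 fold changes. Those of PSMB10 (0.23), PSME1 (0.11), PSME2 (0.17) and NLRC5 (0.56) were positive. PKP2_het replicate 3 was the highest PKP2_het library for each of these genes. WARS, a tryptophan transfer RNA synthetase induced by interferon gamma, had a log2 fold change of 0.37 ± 0.14 (SE) and TRIM26, a ubiquitin ligase encoded near the class I genes, -0.24 ± 0.10, with limma adjusted p-values of 0.316 and 0.344.

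Markers of cell types that could carry these transcripts were present in both groups. Summed over its list, the level of cardiomyocyte markers was 30396 to 44738 FPKM in PKP2_het and 30978 to 36716 FPKM in WT. Of these 10 markers 7 had a positive and 3 a negative log2 fold change, with 0 called. RYR2 averaged 62.0 ± 24.2 FPKM in PKP2_het and 100 ± 24.2 FPKM in WT. Its log2 fold change was -0.74, with an unadjusted limma p of 0.0261 and an adjusted p of 0.295. Of the macrophage markers 10 were tested, all on the negative side (median log2 fold change -0.21) with 0 called by limma, and CSF1R, the macrophage growth factor receptor, had an unadjusted p of 0.0444. Endothelial markers had 9 of 10 negative and a median of -0.26, with 0 called. The 13 T and NK cell markers summed to 4.80 to 10.8 FPKM in PKP2_het and 13.5 to 17.1 FPKM in WT, and 4 of them were tested. GNLY (granulysin), which averaged 0.641 ± 0.374 FPKM in PKP2_het against 6.56 ± 0.603 FPKM in WT, was the 1 call among those 4 (limma adjusted p = 0.000139). Without GNLY the other 12 markers summed to 4.65 to 9.84 FPKM in PKP2_het and 6.80 to 9.80 FPKM in WT. These sums overlapped, but some single markers did not. CD3D was at most at 0.514 FPKM in PKP2_het and at least at 0.692 FPKM in WT. For CD3G these limits were 0.283 and 0.2995 FPKM. Both had at most 28 and 30 fragments in a library and were not tested. Of the 12, KLRK1 alone had the higher mean in PKP2_het (0.679 against 0.552 FPKM). B and plasma cell markers summed to 3.05 to 3.93 FPKM in PKP2_het and 3.56 to 4.26 FPKM in WT. The sums of plasmacytoid dendritic cell markers were 26.1 to 48.0 FPKM in PKP2_het and 25.9 to 36.2 FPKM in WT, most of it IL3RA, an interleukin 3 receptor chain that endothelium also carries. Without IL3RA the remaining 3 summed to 3.14 to 5.66 FPKM in PKP2_het and 5.75 to 9.51 FPKM in WT. Most of that sum was 1 gene, the transcription factor TCF4, with a mean of 4.77 FPKM over all libraries. Of the 3, TCF4 (log2 fold change -0.56) and IRF8 (-0.30) had unadjusted limma p-values of 0.0232 and 0.0217 and were not called. The sums of fibroblast markers were 205 to 467 FPKM in PKP2_het and 233 to 309.5 FPKM in WT. No list had a marker in the table at 0 in all libraries.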

How the data were processed

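RNA of pig right ventricle was sequenced as paired reads in 8 libraries and, per the submitters' processing notes, HISAT2 2.0.5 aligned them. For the counting program, annotation and strand setting the sources used here give nothing. The authors deposited FPKM values for 30550 genes with gene lengths, of which 30335 had the same start and end in RefSeq Sscrofa11.1. Deposited FPKM times length was a whole multiple of 1 step per library for 100% of values within 0.01 fragments, and the library factor equals a median-of-ratios factor, so levels compare with the typical gene.

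The 10757 genes reaching 1 FPKM in 4 or more of 8 libraries were compared on log2(FPKM + 1) by limma 3.58.1 (R 4.3.3) with trended variances and Benjamini-Hochberg adjustment over all of them at 0.05. Tests are two-sided, and 95% intervals use the limma standard error. The fit was also run on simulated counts with planted changes. These counts held no deviations of a library shared across genes. That run therefore does not show how well small changes of the members would be found. The members, lists and tests were chosen with earlier results of these data known, so no list here is independent evidence. List genes were matched by symbol, older symbol (3) or RefSeq synonym (1), and B2M, present in 2 rows, was left out. Symbols without a match were left out too. These were 2 interferon ligands, 2 nucleic acid sensing genes, 9 further interferon-induced genes, 1 cardiomyocyte marker and 1 plasmacytoid dendritic cell marker. Per-library values are given for members with an unadjusted p under 0.05, the 3 highest means, the 8 largest absolute fold changes and any member called in an alternative, and the 3 smallest p-values of each pathway list are named. ISG15, RSAD2, OAS2 and IFI35 were given by library, and MB21D1, GNLY and CSF1R named, after their values were seen. The same holds for the naming of CD3D, CD3G, KLRK1, RYR2, PSMB10, PSME1, PSME2, TAP2, TAPBP and NLRC5.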

Additional observations from a re-analysis of the deposited data

Results flagged for a closer look

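Dixon's test at the 95% level picked out 7 of 94 sets of 4 libraries (7.45%), each with 1 library apart from the remaining 3. About 1 in 20 is the share that chance picks among independent sets of normally distributed values. These sets are FPKM values of genes measured in the same 8 libraries, so that share is no firm yardstick for them. RSAD2 was at 9.49 FPKM in PKP2_het replicate 2 while the remaining PKP2_het libraries held 3.55 to 4.34 FPKM. PSMB8 stood at 26.2 FPKM in PKP2_het replicate 3, against 14.8 to 16.6 FPKM. In WT replicate 3, IFI6 stood at 127 FPKM, while the remaining WT libraries held 40.3 to 45.2 FPKM, and OAS2 at 6.95 FPKM, against 3.83 to 4.35 FPKM. Among the pathway genes, TMEM173 stood at 17.4 FPKM in PKP2_het replicate 3, against 8.44 to 9.17 FPKM, and TRIM26 at 4.71 FPKM in PKP2_het replicate 2, against 3.71 to 3.73 FPKM. IL10RB stood at 4.66 FPKM in WT replicate 4, against 3.37 to 3.55 FPKM.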

How the results depend on the processing

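With 17 alternatives run, the count of members called stayed at 0 in both directions in all but 1: library quality weights called 1 member lower (PSMB8) beside 367 genes higher and 292 lower of all tested, and gave PKP2 a log2 fold change of -0.57 (limma adjusted p = 0.0203). Rescaling libraries to equal FPKM sums moved the median of all genes to -0.23 and that of the members to -0.21, with 49 genes called higher and 47 lower. Under that rescaling the log2 fold change turned negative for IFITM3 (-0.12), RSAD2 (-0.11), GBP2 (-0.092), OAS1 (-0.13), OAS2 (-0.067), EIF2AK2 (-0.060), IFI35 (-0.069), IFI44 (-0.020), IFI44L (-0.19), IRF9 (-0.13), ISG15 (-0.12), HERC6 (-0.067), USP18 (-0.061), TRIM21 (-0.14) and DTX3L (-0.053), as the shift of the median does for any small positive value. The weights turned IFIT3 (0.023), IFIH1 (0.019), DDX58 (0.11), IFI35 (-0.029), IFI44L (-0.017), IRF7 (0.14) and TRIM21 (-0.097), and quantile normalisation STAT2 (0.025); the cause was not tested. The fit with a replicate block called 66 genes higher and 39 lower, against 124 and 76, and 0 members. Same-numbered libraries did not all deviate together (correlations -0.39, 0.033, -0.23 and 0.20), so the block is a check of the fit only. Leaving out each library in turn gave 75 to 195 genes higher and 40 to 119 lower (lowest without WT replicate 4, highest without PKP2_het replicate 3; 1 of these counts or both moved by over 1.5 times without any of the PKP2_het libraries and without WT replicates 2 and 4), 0 members called each time, and a member median of -0.062 to 0.071. Over these omissions the log2 fold change crossed 0 for IFIT1 (-0.24 to 0.020), GBP1 (-0.15 to 0.10), RSAD2 (-0.17 to 0.36), MX1 (-0.023 to 0.39), IFIT3 (-0.16 to 0.071), GBP2 (-0.036 to 0.22), CMPK2 (-0.30 to 0.047), OAS1 (-0.021 to 0.29), OAS2 (-0.059 to 0.31), IFIH1 (-0.24 to 0.0019), IFI35 (-0.027 to 0.32), IFI44L (-0.18 to 0.17), IRF1 (-0.18 to 0.034), STAT2 (-0.068 to 0.041), IRF7 (-0.13 to 0.048), ISG15 (-0.020 to 0.34) and TRIM21 (-0.041 to 0.12). Over all 17 alternatives 53 of 629 member values changed sign, and 12 members did so in none, among them MX2, SAMHD1, TRIM25, PSMB8 and IFI6. Of these 12 only DHX58 and IFI6 were positive. The rescaling to equal FPKM sums shifted genes downward and turned positive members only. Keeping a sign was therefore easier for negative members and does not rank them as firmer. The 2 planned count-model fits were not run, since the deposited unit is FPKM, while a limma voom fit on fragments recovered from FPKM and the marker sums without GNLY or IL3RA were chosen after seeing the data. Fragment counts as low as 39 limit members near 1 FPKM, and 4 libraries per group limit all intervals.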
